A study of Mus musculus with 39 samples.

Results

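Replication-dependent histone genes, those whose symbol begins with Hist1, Hist2, Hist3 or Hist4 and then names a histone type, were followed in mouse epiblasts with and without Stat3. Every row of the epiblast and EpiSC count tables whose symbol fitted this pattern was taken. Of 71 matching symbols, 1 pseudogene marked "-ps" was left out. This left 70 of 47643 listed genes, namely 6 of type H1, 20 of H2A, 19 of H2B, 12 of H3 and 13 of H4. By position in mouse genome build GRCm38, 23 lay near 21 Mb and 30 near 23 Mb of chromosome 13 (Hist1), 11 on chromosome 3 (Hist2), 2 on chromosome 11 (Hist3) and 1 on chromosome 6 (Hist4h4). Hist1h2al, annotated as a processed pseudogene, lay apart on chromosome 13, and Hist1h2bh and Hist1h2bm were not found by identifier in the annotation used. Hist1h2aj, annotated as an unprocessed pseudogene, and an entry named Hist2h2bb, annotated as a long noncoding RNA, were also kept.

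The epiblast is the tissue of the early embryo that forms the fetus, and EpiSCs are stem cell lines grown from it. Single epiblasts were cut from CD1 embryos bred from Stat3 heterozygous parents, with the visceral endoderm and extraembryonic ectoderm removed by hand, at E5.5 (4 null, 2 WT), E6.5 (8 null, 9 WT) and E7.5 (3 null, 9 WT). In null embryos a Neo cassette replaces the Stat3 exons that hold the SH2 and transactivation domains in every cell, so embryonic and extraembryonic tissue lacked STAT3 alike. The EpiSC lines, 2 null and 2 WT, were derived from E6.5 and E7.5 epiblasts and grown in Activin A, FGF2 and the WNT pathway inhibitor XAV-939. Both kinds of library were made from total RNA after removal of ribosomal RNA, so messages without a poly(A) tail could be read. The epiblast and EpiSC libraries used different kits and were normalized apart, so tissue and preparation cannot be told apart between them.

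Histones package DNA into nucleosomes. H2A and H2B form dimers and H3 and H4 form a tetramer, which together make the core particle, and H1 binds the linker DNA between particles. The genes studied here supply most new histone while DNA is copied. They lie in clusters, mostly lack introns, and are transcribed in S phase under NPAT. Their messages end in a short hairpin in place of a poly(A) tail. SLBP binds this hairpin and, with the U7 snRNP, directs the cut that forms the 3′ end, and loss of the hairpin's protection after S phase destroys the message.

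The hairpin itself was looked for in the annotated transcripts, because it marks the messages that are made and destroyed in this way. The letters searched were GGNNCTNNNNAGNNCC on the coding strand, after the stop codon, with both arms of 6 bases complementary around a loop of 4. It was found in 44 of 65 coding members and in 0.466% of 22527 coding genes of the annotation. Of 8 forms, the 3 most frequent are printed in capitals as DNA, 5′ to 3′, from GENCODE transcripts.
Form in 24 members of types H1, H2A, H2B and H3: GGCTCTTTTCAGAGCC
Form in 7 members, all of type H4: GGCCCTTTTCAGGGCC
Form in 6 members: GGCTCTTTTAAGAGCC
The hairpin began 22 to 59 bases after the stop codon, with a median of 32.5. H4 was the type in which it was found most often (12 of 13 genes), and no H4 gene shared a form with another type. All 32 hairpins of the other types began GGCT, and no H4 hairpin did. Of the 21 coding members without a match, 17 had an annotated 3′ untranslated region of at most 100 bases, and 15 of these ended within 2 bases of the stop codon, so that no hairpin could be read. The other 4 were Hist1h2bc, Hist1h2bq, Hist1h2br and Hist2h2be, all of type H2B, with annotated regions of 742, 1608, 1803 and 2192 bases.

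The starts of the genes differed by type. RefSeq windows on GRCm38.p6 from 250 bases before to 50 bases after the start were found for 60 members. The CCAAT box (CCAAT, or ATTGG on the other strand) was present in all 48 windows of H1, H2A, H2B and H3 genes but in 3 of 12 H4 windows, and in 37.4% of 32851 windows of all genes. The octamer (ATTTGCAT or ATGCAAAT), a motif bound by POU factors, was present in 7 H2A and 6 H2B windows and in no H1, H3 or H4 window, against 1.74% of all windows. The TATA box (TATAAA or TTTATA) was present in 35 of 60 windows against 13.6% of all. Reading the H4 windows showed the letters GGTCCG, the core of an element known in H4 promoters, and a search for them (or CGGACC), chosen after they were read, found them in 11 of 12 H4 windows, in 1 of 48 windows of the other types and in 8.25% of all. No motif searched is contained in another.

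Printed here are the windows of 4 genes that the results below turn on. In the first 2, capitals mark CCAAT, TATA and octamer matches, and in the H4 windows they mark GGTCCG.
Hist1h2aa, chr13:23934187-23934486, plus strand: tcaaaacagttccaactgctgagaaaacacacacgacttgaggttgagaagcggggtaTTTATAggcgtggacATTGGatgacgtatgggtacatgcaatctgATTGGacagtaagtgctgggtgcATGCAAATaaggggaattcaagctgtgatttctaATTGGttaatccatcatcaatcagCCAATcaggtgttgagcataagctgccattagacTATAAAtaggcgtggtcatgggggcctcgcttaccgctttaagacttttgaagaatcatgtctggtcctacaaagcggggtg
Hist1h2bn, chr13:21753826-21754125, plus strand: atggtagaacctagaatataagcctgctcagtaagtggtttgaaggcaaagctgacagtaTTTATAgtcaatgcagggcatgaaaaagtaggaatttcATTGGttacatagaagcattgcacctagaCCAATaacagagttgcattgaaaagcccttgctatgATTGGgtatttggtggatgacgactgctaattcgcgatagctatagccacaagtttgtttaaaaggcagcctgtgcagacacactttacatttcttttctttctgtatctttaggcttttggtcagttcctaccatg
Hist1h4h, chr13:23530794-23531093, plus strand: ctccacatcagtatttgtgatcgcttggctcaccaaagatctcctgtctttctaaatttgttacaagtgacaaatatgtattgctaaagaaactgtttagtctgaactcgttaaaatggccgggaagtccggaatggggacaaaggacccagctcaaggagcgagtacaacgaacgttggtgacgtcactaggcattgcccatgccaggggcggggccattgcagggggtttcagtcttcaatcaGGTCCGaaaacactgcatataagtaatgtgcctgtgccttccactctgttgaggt
Hist4h4, chr6:136804382-136804681, minus strand: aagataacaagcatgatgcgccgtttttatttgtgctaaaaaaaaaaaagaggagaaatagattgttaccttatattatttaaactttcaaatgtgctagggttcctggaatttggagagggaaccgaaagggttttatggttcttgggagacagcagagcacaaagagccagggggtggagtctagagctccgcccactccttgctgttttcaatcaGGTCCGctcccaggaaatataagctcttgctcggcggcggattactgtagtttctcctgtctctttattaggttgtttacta
GGTCCG began 5 bases before the start of Hist1h4h and 32 before that of Hist4h4. Neither H4 window held a match to the CCAAT box, the TATA box or the octamer, whereas Hist1h2aa held all 3. A match describes the letters only.

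Many of these genes share sequence, which limits what counts can say of 1 gene. Of the windows of 50 bases in a member's transcripts, a median of 56.0% occurred also in a transcript of another gene, 36 members shared 50% or more, and 5 shared all (Hist2h2aa1, Hist2h2aa2, Hist2h3b, Hist2h3c1 and 1 of the 2 entries named Hist2h2bb). The median was 1.15% for H1, 73.2% for H2A, 49.7% for H2B, 62.0% for H3 and 39.5% for H4. Also, 27 members overlapped another annotated gene, Hist1h2aa among them (Gm44344). The counting's strand setting is not given in the sources used here, so reads of overlapping genes may not be separable.

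Total counts lay between 22941210 and 79013960 in epiblast libraries and between 63445877 and 127583699 in EpiSCs. At E6.5, replicates 1 to 3 of both genotypes were deeper than the rest, over 40000000. Stat3 itself was read at 9.33 to 22.7 CPM (counts scaled to a common library total) in E5.5 null against 39.2 to 51.1 in WT, 1.43 to 8.1 against 5.66 to 28.9 at E6.5, 1.22 to 1.5 against 4.63 to 24.3 at E7.5, and 3.14 to 3.52 against 18.1 to 22.9 in EpiSCs. The E6.5 ranges overlapped. The E5.5 null library 1 held almost no Pou5f1, the pluripotency gene that marks the epiblast (0.662 CPM). It also had the highest extraembryonic ectoderm marker sum of all libraries (1700 CPM) and the lowest visceral endoderm sum of the epiblasts (27.3 CPM), so its label as epiblast is not borne out by its markers. It and WT library 3 of both later stages were also left out together, as 3 libraries that stand apart.

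As a family, the 70 genes made up between 0.603% and 1.68% of all counts in epiblasts and between 1.26% and 1.64% in EpiSCs, and 65 to 70 of them had a count in each library. Their summed level, in CPM after TMM scaling, was 8349 ± 1953 (SD, n = 2) in E5.5 WT, 12080 ± 3115 (n = 9) in E6.5 WT and 14500 ± 1763 (n = 9) in E7.5 WT. In null epiblasts it was 9466 ± 1143 (n = 4), 8573 ± 1601 (n = 8) and 14430 ± 1483 (n = 3). E5.5 null replicate 1 lay at 9468 CPM and the other 3 at 7964, 10730 and 9696. The sum of null epiblasts was thus about level from E5.5 to E6.5 and high at E7.5, whereas that of WT epiblasts was intermediate at E6.5, with a wide range (8238 to 16260 CPM, against 6172 to 10850 in null). In these bulk samples, fewer cells in S phase and less histone RNA per cell cannot be told apart.

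**Figure D1:**
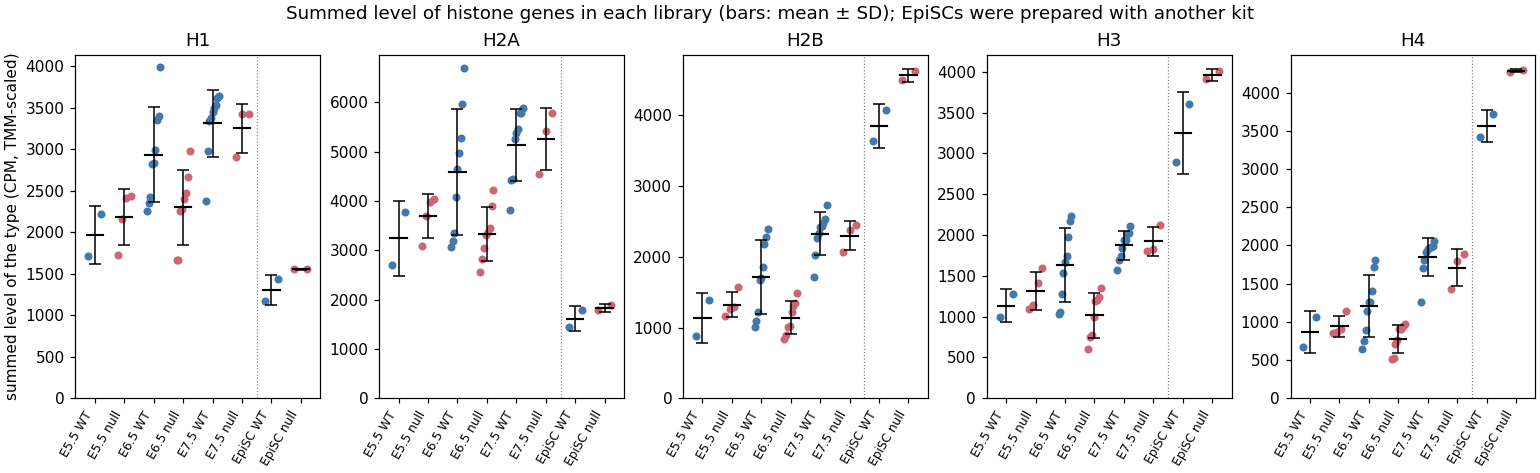
Summed level of the members of each histone type (CPM, TMM-scaled, linear axis) in each of 39 libraries by group, with blue points for WT, red for Stat3 null and black bars for mean ± SD. H2A and H1 gave the largest sums in epiblasts and H2B, H3 and H4 the largest in EpiSCs, which were made with another kit and stand right of the dotted line.

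The types were unequal, and their order depended on the table. H2A genes made up 35.4% to 39.1% and H1 genes 22.6% to 26.8% of the members' summed CPM in the 6 epiblast groups (means). In EpiSCs, H2A made up 11.3% and 11.8% in null and WT lines and H1 9.6% and 9.59%, while H2B made up 28.2% and 28.4%, H4 26.4% and 26.3%, and H3 24.5% and 23.9%. Per length (RPKM, which divides CPM by annotated exon length in kilobases), H2A still took 50% to 55.7% in epiblast groups and 16.5% and 17.2% in EpiSCs. H4 took 9.93% to 14.4% per length in epiblasts, highest in E7.5 WT, and 27.4% and 27.7% in EpiSCs.

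The highest single genes were likewise of type H2A in epiblasts. Hist1h2ah reached 979 ± 317 RPKM (SD, n = 35), Hist1h2al 966 ± 682 and Hist1h2ak 893 ± 209. Hist1h2al is an annotated pseudogene, and its level varied most of these 3. Among linker histones, Hist1h1b (497 ± 109 RPKM), Hist1h1a (474 ± 107) and Hist1h1c (410 ± 108) led and differed by less than their spread. Hist1h2bn (393 ± 168), Hist1h2bk (346 ± 131) and Hist1h2bj (286 ± 89.5) led the H2B genes. Hist1h3b (247 ± 69.5), Hist1h3g (235 ± 67.5) and Hist1h3e (232 ± 76.8) led the H3 genes, and Hist1h4k (410 ± 184), Hist1h4b (302 ± 123) and Hist1h4d (286 ± 84.9) the H4 genes. Neighbours in each of these orders lay within 1 SD of each other.

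In EpiSCs the highest genes were of types H4, H3 and H2B. Hist1h4d reached 1086 ± 100.1 RPKM (SD, n = 4), Hist1h3i 1021 ± 143, Hist1h4n 963 ± 111, Hist1h2bg 893 ± 86.7, Hist1h4k 872 ± 116 and Hist1h3e 804 ± 80.7. Hist1h3i, Hist1h4n and Hist1h2bg, named after their values were seen, ranked just below the leading 3 of their types in epiblasts (222 ± 77.5, 272 ± 109 and 267 ± 87.6 RPKM). Hist1h2ah was at 243.5 ± 31.4 RPKM in EpiSCs. Hist4h4 and Hist2h4, the H4 genes outside the Hist1 cluster, were the lowest H4 genes in epiblasts per length (28.8 ± 19.9 and 27.2 ± 11.7 RPKM) and in EpiSCs (94.7 ± 14.4 and 138 ± 17.7 RPKM). This order rests on their annotated lengths, 2863 and 1630 bases, which are longer than those of the other H4 genes. As CPM, which is not divided by length, Hist4h4 averaged 162 in E7.5 WT and 237 in EpiSC WT lines, and Hist1h4i 68.7 and 111.

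This contrast was seen within gene pairs that share a start region. In 12 places an H2A and an H2B gene run in opposite directions with starts 176 to 306 bases apart, an arrangement known for these genes. In epiblasts the H2A partner had the higher RPKM in 10 of 12 pairs, with a median ratio of 2.69. In EpiSCs it was higher in 1 of 12, with a median ratio of 0.414. All 12 ratios were lower in EpiSCs, a comparison in which the lengths cancel. The size of a ratio rests on annotated lengths, which differ within some pairs. Hist1h2bq and Hist1h2br are 2015 and 2212 bases long. Their partners Hist1h2ao and Hist1h2ap are 480 and 482 bases long, with ratios of 9.58 and 9.06 in epiblasts. For Hist1h2ah and Hist1h2bk the ratio was 2.83 in epiblasts and 0.303 in EpiSCs, and for Hist1h2ad and Hist1h2bf 3.4 and 0.198. The exception in EpiSCs was Hist2h2ac with Hist2h2be (498 and 52.9), because Hist2h2be was at 0.816 and 1.06 RPKM. The pair of testis forms, Hist1h2aa and Hist1h2ba, was low in both tables, and Hist1h2aa was at 0 in 3 of 4 EpiSC libraries.

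**Figure D2:**
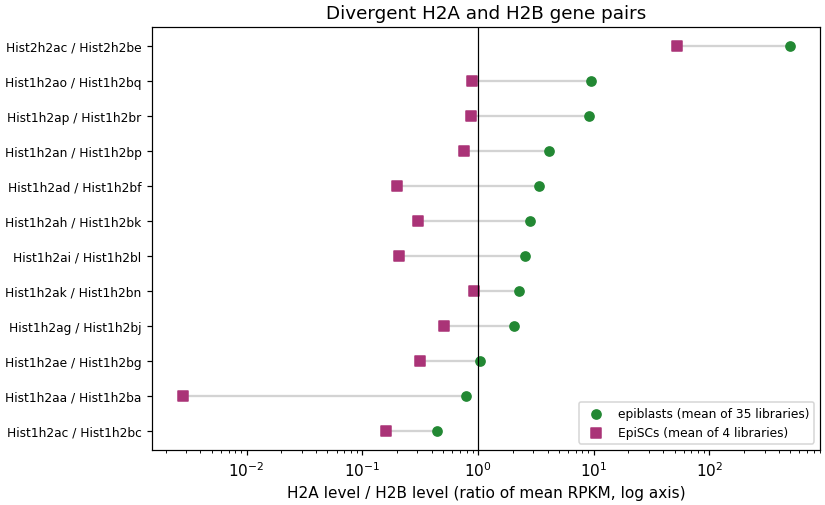
Ratio of the mean RPKM of the H2A gene to that of the H2B gene (log axis) in 12 divergent pairs, with green circles for 35 epiblast libraries and purple squares for 4 EpiSC libraries. Ratios were above 1, the vertical line, in 10 pairs in epiblasts and in 1 pair in EpiSCs, and each pair's ratio was lower in EpiSCs.

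The first question of the design was whether loss of Stat3 changed these genes at each stage. Genes were tested with edgeR, and a gene was called where its log2 fold change was over 1 in size with an adjusted p under 0.05 over all genes tested. At E5.5 no member was called of 68 tested, beside 0.0% of all 18690 genes tested. The members' median log2 fold change was 0.18 (56 higher in null, 12 lower), against -0.0096 over all genes. Before adjustment 2 members had a p under 0.05, both higher (1.25% of all genes were higher at that p). These were Hist2h2ac at 0.99 ± 0.18 (SE) and Hist2h2ab at 1.23 ± 0.33, both replication-dependent H2A genes that are neighbours on chromosome 3, with adjusted p of 0.999. DESeq2 called 1 member, beside 9 genes higher and 5 lower of all 18690. The median rested on the 2 WT libraries. It was -0.0773 without WT replicate 1 and 0.476 without WT replicate 2. Without null replicate 1, whose markers go against its label, it was 0.171 with 0 called.

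At E6.5 the family as a whole stood lower in null epiblasts, although no gene passed adjustment. Of 69 members tested, 67 had a lower and 2 a higher estimate in null, with a median log2 fold change of -0.54 (all 17095 genes, -0.0086). By type the median was -0.33 for H1, -0.49 for H2A, -0.55 for H2B, -0.58 for H3 and -0.70 for H4. None was called, beside 0.0% of all genes, and 50 were lower at an unadjusted p under 0.05, as were 3.51% of all genes. DESeq2 called 0, gave 51 lower at that unadjusted p, and put 6 below an adjusted p of 0.05, all lower. Over all 17095 genes DESeq2 called 15 higher and 3 lower, and 1636 passed the unadjusted p in either direction. Its number over all genes below that adjusted p is not given.

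Named members show the size of the shift and the overlap. Hist1h4h, an H4 gene, lay at 42.6, 60.3 and 75.9 CPM (lowest, median and highest) in 8 null and 73.8, 91.7 and 134 in 9 WT epiblasts (log2 fold change -0.71 ± 0.16, adjusted p 0.333). Hist1h3e, an H3 gene, lay at 55.5, 128 and 173 CPM in null and 140, 207.5 and 323 in WT (-0.77 ± 0.19, adjusted p 0.334). Hist1h2ah, the highest H2A gene, lay at 178, 278 and 354 CPM in null and 244, 432 and 552 in WT (-0.54 ± 0.17). Hist1h1b, a linker histone, lay at 241, 343 and 385 CPM in null and 215, 418 and 516 in WT (-0.26 ± 0.14). For each of these genes the ranges overlapped, with the highest null values above the lowest WT values.

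Genes outside the Hist1 cluster mostly shared the direction. Hist2h2ab (-0.57 ± 0.18), Hist2h2ac (-0.50 ± 0.23), Hist2h3c2 (-0.61 ± 0.18), Hist2h4 (-0.35 ± 0.25), Hist3h2a (-0.46 ± 0.20) and Hist3h2ba (-0.98 ± 0.48) were lower in null. Hist4h4 was an exception, at 28.6 to 69.8 CPM in null and 27.6 to 82.2 in WT, a log2 fold change of -0.02 ± 0.23. Hist1h2ba, the testis form of H2B, had the highest estimate (0.25 ± 0.45) and Hist2h3c1 the lowest (-1.42 ± 1.10). The members with a hairpin had a median of -0.55 (43 of 43 lower), the 4 H2B genes with a long 3′ region -0.52 (4 of 4 lower), those sharing 50% or more of their windows -0.52 and those sharing less -0.54.

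**Figure D3:**
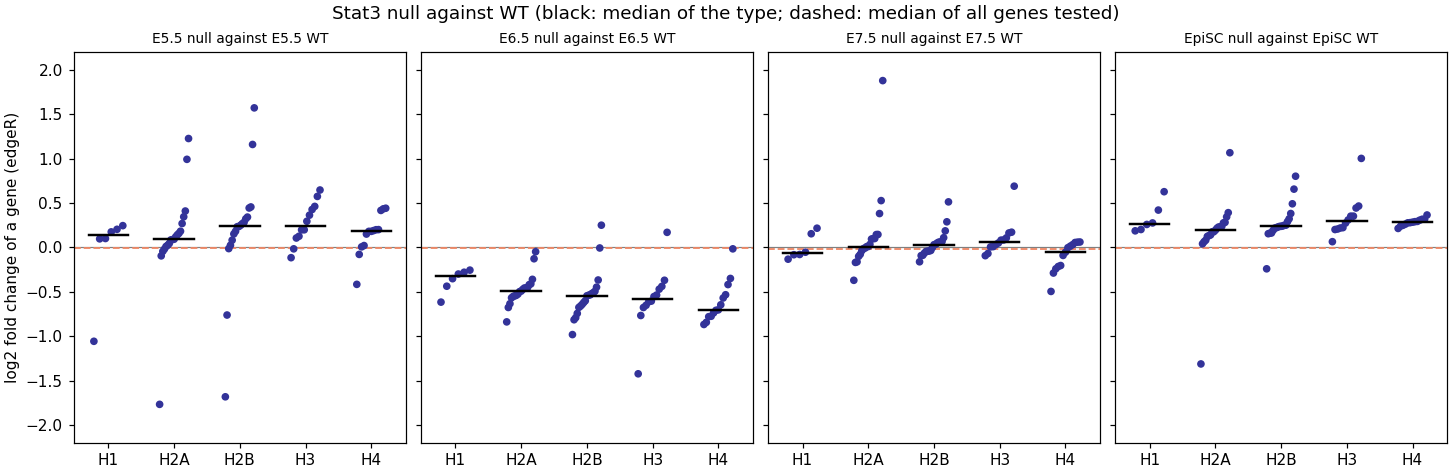
Log2 fold change of each member, Stat3 null against WT (edgeR), by histone type in the 4 genotype comparisons. Points are genes, black bars the type's median and the dashed line the median of all genes tested; at E6.5 67 of 69 points lie below 0, and in EpiSCs 67 of 69 lie above it.

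The libraries were compared next, each by the median over members of log2(CPM + 1) minus the mean of the 35 epiblasts. E6.5 null epiblasts lay between -0.925 and -0.134 (median -0.406) and E6.5 WT between -0.57 and 0.541 (median 0.177). Among libraries under 40000000 counts, 5 null lay between -0.737 and -0.196 and 6 WT between -0.288 and 0.541. Among the 3 deeper libraries of each genotype the medians were -0.524 in null and -0.537 in WT, since 2 of the 3 deep WT libraries, 1 and 3, were low. The fit on the deeper libraries alone gave a median log2 fold change of -0.40 and 3 members lower at an unadjusted p under 0.05, and that on the others -0.64 and 58. With depth as a term the count was 51. The deeper libraries number 3 a side. These counts come from fits with other libraries or terms, and the share of all genes at that p in those fits is not given. The counts are therefore not compared with each other.

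Tissue markers moved beside this result. All 10 visceral endoderm markers and all 6 of 8 extraembryonic ectoderm markers tested had higher estimates in E6.5 null. Their summed levels ranged from 116 to 6450 CPM (visceral endoderm) and 24.8 to 1300 (extraembryonic ectoderm) in null, against 48.3 to 5580 and 13 to 122 in WT. The 8 epiblast markers summed to 3350 to 5940 CPM in null and 4660 to 7680 in WT. Elf5, which defines extraembryonic ectoderm, was at 0.51 to 182 CPM in null and 0 to 2.84 in WT. Of 7 maternal and blood markers 2 were tested, 1 higher and 1 lower in null. The highest visceral endoderm sums were in WT replicates 3 and 1 (5580 and 1590 CPM) and null replicates 3, 4 and 8 (6450, 4380 and 4050). The library medians of the histone genes there were -0.537 and -0.57, and -0.925, -0.737 and -0.512. Null replicate 2, at 468 CPM, had a median of -0.524, and WT replicate 4, at 810 CPM, one of 0.502. The part of these tissues in the histone result was not tested.

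Genes that act with the family did not shift alike. Of 20 genes for the processing and supply of histones (SLBP, NPAT, the U7 snRNP and histone chaperones), 10 were higher and 10 lower in E6.5 null, with a median log2 fold change of 0.00. Of 18 genes of S phase (MCM helicase, PCNA, ribonucleotide reductase), 11 were higher and 7 lower, with a median of 0.01. Of 11 replication-independent histone genes tested, 1 was higher and 10 were lower, with a median of -0.08. None of these genes was called. The summed S phase level was 3160 to 4310 CPM in null and 3330 to 4310 in WT.

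At E7.5 the family did not stand apart by genotype. DESeq2 called no member, beside 71 genes higher and 922 lower of all 19680. By edgeR the median log2 fold change of 69 members was 0.01 (38 higher, 31 lower), with none called, beside 1.17% of all genes. Before adjustment 2 members had a p under 0.05, where 19.7% of all genes did. These were Hist2h2ab (0.38 ± 0.15) and Hist3h2ba (0.29 ± 0.13), both higher in null. Hist4h4 gave the lowest estimate (-0.50 ± 0.26, adjusted p 0.322), with 115, 121 and 105 CPM in null and, in 8 of 9 WT epiblasts, 143 to 201. WT replicate 3 was at 62.8 CPM, below all null values. The library medians were 0.31 to 0.573 in null and 0.071 to 0.655 in WT. Tissue markers did differ. All 10 visceral endoderm and all 6 extraembryonic ectoderm markers tested had lower estimates in null (medians -3.69 and -2.57, 3 and 1 called). All 8 epiblast markers had higher estimates (median 1.28, none called). Epiblast markers summed to 4380 to 6110 CPM in null, 1100 to 3020 in 8 of 9 WT epiblasts and 6090 in WT replicate 3. The part of tissue content or stage in the histone values was not tested.

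**Figure D4:**
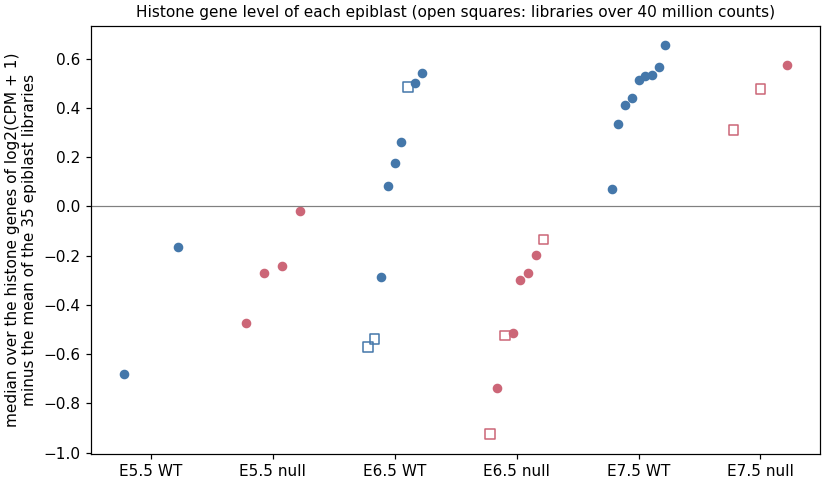
Median over the members of log2(CPM + 1), minus the mean of the 35 epiblasts, for each epiblast library by group, with blue for WT, red for null and open squares for libraries over 40000000 counts. E6.5 null libraries all lie below 0 and E6.5 WT libraries spread from -0.57 to 0.541, whereas all E7.5 libraries lie above 0.

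In EpiSCs the small differences ran the other way. Of 69 members tested 67 were higher in null lines, with a median log2 fold change of 0.25 (all genes, -0.01). None was called by edgeR, beside 0.106% of all genes, and 32 were higher at an unadjusted p under 0.05, as were 3.61% of all genes. All 13 H4 genes were among them, with estimates from 0.21 to 0.36. The 2 null lines lay above both WT lines for 53 members, and so did 18.8% of all genes. DESeq2 put 4 members higher and 1 lower below an adjusted p of 0.05 and called the last, Hist2h2aa1 (-1.31), which shares all its windows with other genes. Over all 20736 genes DESeq2 called 60 higher and 143 lower, and its number below that adjusted p at any fold is not given. Without WT line 13 edgeR called 1.

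Hist1h1b was at 131 and 128 CPM in null lines and 103 and 90.4 in WT lines (0.42 ± 0.09, adjusted p 0.195). Hist4h4 was at 295 and 316 CPM in null and 245 and 229 in WT (0.36 ± 0.08, adjusted p 0.211). Hist3h2ba was at 110 and 117 CPM in null and 81.9 and 62.3 in WT (0.66 ± 0.14). For these 3 genes both null lines lay above both WT lines. All 18 S phase genes had higher estimates in null lines too, with a median of 0.18 and none called. With 2 lines a side, a line's own history cannot be told apart from genotype.

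The second question was how the genes moved from stage to stage within a genotype. From E5.5 to E6.5 in WT, 67 of 70 members had a higher estimate, with a median log2 fold change of 0.59 (all genes, 0.10). None was called, beside 5.15% of all genes, but 2 rose with an adjusted p under 0.05 (5.15% of all genes rose). These were Hist1h1d, a linker histone, at 469 and 427 CPM at E5.5 and 611 to 1215 at E6.5 (0.88 ± 0.22, adjusted p 0.0276), and Hist1h2af, an H2A gene, at 168 and 212 CPM at E5.5 and 241 to 462 at E6.5 (0.89 ± 0.25, adjusted p 0.0416). They are named for this result after their values were seen. For both genes every E6.5 WT value lay above both E5.5 values. This held for 7 of the 70 members, these 2 among them, and the share of all genes for which it held is not given. At an unadjusted p under 0.05, 16 of 70 members were higher and 0 lower, and 4772 of all 20763 genes passed it in either direction. The median was 0.255 without E5.5 WT replicate 1 and 0.805 without E5.5 WT replicate 2. DESeq2 called 4 members, all higher, beside 977 genes higher and 944 lower of all 20763. Without E6.5 WT replicate 9 edgeR called 1 member. Visceral endoderm markers summed to 5280 and 6700 CPM at E5.5 and to 48.3 to 5580 (median 158) at E6.5, extraembryonic ectoderm markers to 137 and 611 and then 13 to 122, and epiblast markers to 2660 and 4060 and then 4660 to 7680. Of these lists 9 of 10, 8 of 8 and 1 of 8 genes had lower estimates at E6.5, and their part in the histone values was not tested.

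From E5.5 to E6.5 in null the estimates mostly had the opposite sign. Of 70 members 54 were lower, with a median of -0.21 (all genes, 0.02), and 5 were lower at an unadjusted p under 0.05, as were 7.92% of all genes. Only Hist2h2ab was called, and 1.98% of all genes were. It fell from 70.8, 46.7, 51.2 and 48.2 CPM at E5.5 to between 19.4 and 34.2 at E6.5, a log2 fold change of -1.004 ± 0.18 (adjusted p 0.00874), with no overlap. The fold lay at the threshold. It was -0.82 (not called) without E5.5 null replicate 1, the library whose markers go against its label, and between -0.945 and -0.982 without E6.5 null replicates 3, 4 or 8. The median was -0.169 without E5.5 null replicate 1, -0.146 without E5.5 null replicate 3 and -0.14 without E6.5 null replicate 3. Visceral endoderm markers summed to 6710 to 11100 CPM in 3 of 4 E5.5 null libraries and 27.3 in replicate 1, against 116 to 6450 at E6.5, and extraembryonic ectoderm markers to 180 to 1700, against 24.8 to 1300. Epiblast markers summed to 1110 to 3010 CPM and then 3350 to 5940. Of these lists 8 of 10, 7 of 7 and 0 of 8 genes had lower estimates at E6.5, and their part was not tested. The difference between the WT and null steps from E5.5 was not tested.

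From E6.5 to E7.5 in WT, some members of every type but H3 rose, H4 and H2B genes giving 15 of 18. Of 69 members tested 18 rose with an adjusted p under 0.05 (12.7% of all genes rose) and 2 fell (12.3% of all genes fell). The 18 were 7 of 13 H4, 8 of 19 H2B, 2 of 6 H1, 1 of 19 H2A and 0 of 12 H3 genes. The median log2 fold change was 0.73 for H4, 0.43 for H2B, 0.26 for H2A, 0.23 for H3 and 0.04 for H1. Over all members it was 0.31, against 0.01 for all genes, and it was 0.48 for the 23 genes near 21 Mb and 0.27 for the 30 near 23 Mb of chromosome 13.

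By fold as well, 2 members were called (8.83% of all genes were), and they moved in opposite directions. Hist4h4, the H4 gene of its own locus on chromosome 6, rose from 27.6, 42.3 and 82.2 CPM (lowest, median and highest) at E6.5 to 62.8, 178 and 201 at E7.5, a log2 fold change of 1.72 ± 0.23 (adjusted p 3.82e-05). Without E6.5 WT replicate 4 the calls numbered 4. Of the 9 E7.5 WT Hist4h4 values 8 lay above every E6.5 WT value, and the other was replicate 3. Epiblast markers in replicate 3 summed to 6090 CPM, against 1100 to 3020 in the other 8 and 4660 to 7680 in E6.5 WT. Its Pou5f1 was at 605 CPM, against 154 to 436 in the other 8 and 424 to 686 in E6.5 WT. Whether its stage sets its Hist4h4 level was not tested. The Hist4h4 transcript carried the hairpin of the H4 form and shared 8.5% of its windows with other genes.

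Hist1h2aa, a testis form of H2A, fell from 1.7, 5.31 and 23.4 CPM at E6.5 to 0, 0.192 and 2.26 at E7.5, a log2 fold change of -4.39 ± 0.87 (adjusted p 0.000998). It was at 0 in 3 of 9 E7.5 WT libraries, and replicate 9 alone overlapped the E6.5 range. Its divergent partner Hist1h2ba stayed at 2.38 to 14.3 CPM at E6.5 and 2.0 to 19.4 at E7.5 (0.17). Hist1h1t, the testis form of H1, fell by less (-0.83 ± 0.27, adjusted p 0.0304), from 11.2, 32.2 and 37.5 CPM to 4.93, 16.4 and 25.2. At E5.5 the same 3 genes were read in WT and null epiblasts, with Hist1h2aa at 2.88 and 40.4 CPM in WT and 2.71 to 9.49 in null. Its counts include any from the overlapping Gm44344 that could not be separated.

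**Figure D5:**
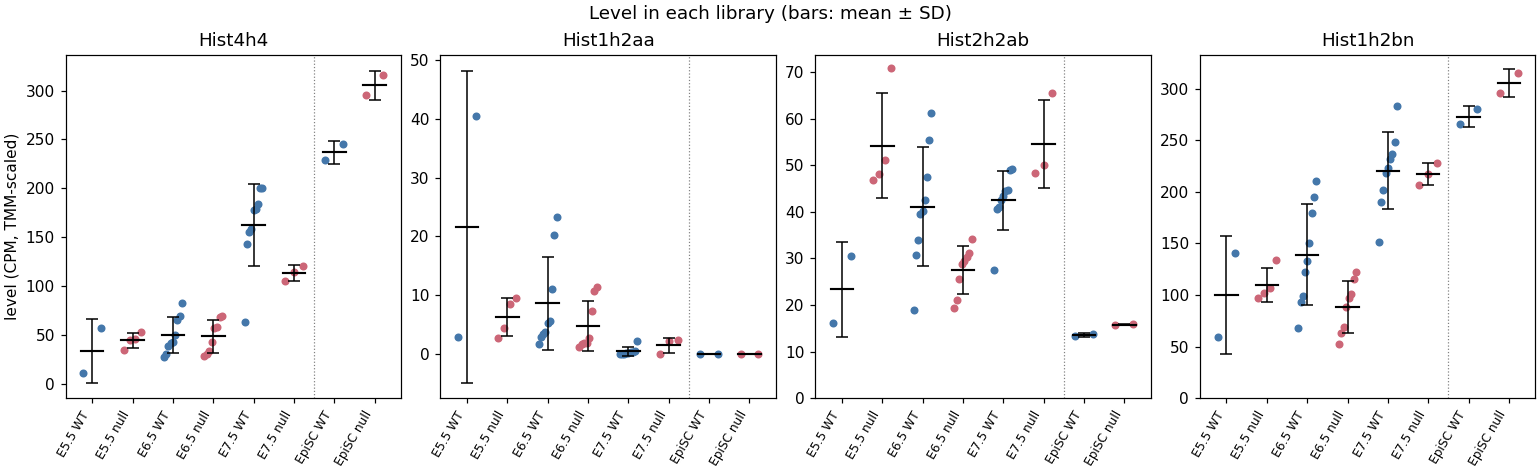
Level (CPM, TMM-scaled, linear axis) of Hist4h4, Hist1h2aa, Hist2h2ab and Hist1h2bn in each library by group, with blue for WT, red for null and black bars for mean ± SD. Hist4h4 is above 100 CPM in all E7.5 epiblasts but WT replicate 3, Hist1h2aa is at most 2.28 CPM at E7.5, Hist2h2ab is lower in E6.5 null than in E5.5 null, and Hist1h2bn is above 200 CPM in all 3 E7.5 null epiblasts.

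Other H4 genes moved less than Hist4h4. Hist2h4 rose by 0.84 ± 0.17 (adjusted p 0.000908), from 25.5, 30.6 and 57.0 CPM to 43.7, 67.4 and 82.1. Hist1h4h rose by 0.73 ± 0.14 (adjusted p 0.000605). Hist1h4j (0.90 ± 0.27) and Hist1h4k (0.79 ± 0.17) rose as well. The H2B genes that rose included Hist1h2bn (0.67 ± 0.18), Hist1h2bk (0.57 ± 0.16), Hist1h2bq (0.52 ± 0.16), Hist1h2br (0.49 ± 0.16) and Hist1h2bc (0.45 ± 0.16), and of the leading H1 genes only Hist1h1c passed (0.35 ± 0.12). Hist1h2bq and Hist1h2br share 97.3% and 88.7% of their windows with other genes, most with each other, so that their counts may be split between them.

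The other gene lists did not move as one over this step. Of 18 S phase genes 2 rose and 5 fell, and of 20 processing and supply genes 2 fell, all without a call. Of 11 replication-independent histone genes 7 rose and 1 fell, and 3 of them were called, namely H2afy (2.21 ± 0.36) and H2afy2 (1.88 ± 0.25), which encode macroH2A forms, and H1fx, a linker histone (1.44 ± 0.18). Epiblast markers fell (7 of 8, 6 of them called) and 3 of 10 visceral endoderm markers were called higher. Their part in the histone values was not tested.

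From E6.5 to E7.5 in null few genes rose, and members of the family were among them. With an adjusted p under 0.05, 14 members rose, of 22 genes among all 19460 tested (0.113%). By fold as well, 6 members were called, all higher, of 13 genes called higher and 7 called lower (0.103% of all genes in both directions). DESeq2 called 57 genes higher, 17 of them members. Of 70 members tested 66 were higher at E7.5, with a median log2 fold change of 0.90 (all genes, -0.01) and type medians of 1.22 for H4, 1.0 for H2B, 0.89 for H3, 0.77 for H2A and 0.45 for H1. For 45 members all 3 E7.5 values lay above all 8 E6.5 values, as for 3.73% of all genes.

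Of the 6 called genes 5 were H2B and 1 was H4. Hist1h2bn lay at 52.6 to 123 CPM at E6.5 and at 228, 217 and 207 at E7.5 (1.30 ± 0.21, adjusted p 0.0301). Hist1h4h lay at 42.6 to 75.9 CPM at E6.5 and at 157, 162 and 97.5 at E7.5 (1.22 ± 0.20, adjusted p 0.0301). Hist1h2bq lay at 75.3 to 119 CPM at E6.5 and at 172, 189 and 193 at E7.5 (1.07 ± 0.13, adjusted p 0.0177). In none of these did the stages overlap.

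The other 3 called genes showed the same separation of stages. Hist1h2bk went from 76.1 to 166 CPM at E6.5 to 225, 237 and 212 at E7.5 (1.05 ± 0.17). Hist1h2br went from 101 to 171 CPM to 270, 268 and 254 (1.03 ± 0.14). Hist1h2bc went from 76.7 to 143 CPM to 249, 262 and 210 (1.004 ± 0.16). Of these 6 genes 3, Hist1h2bq, Hist1h2br and Hist1h2bc, belong to the 4 H2B genes with a long 3′ region and no hairpin found. Hist4h4 did not pass (1.23 ± 0.26, adjusted p 0.110), and the member with the largest estimate, Hist1h4j, lay at 8.9 to 37.7 CPM and then at 77.4, 92.4 and 55.8 (1.57 ± 0.34, adjusted p 0.110).

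These calls were not stable to the libraries used, although the estimates were. No member was called when any of the 3 E7.5 null replicates or E6.5 null replicate 8 was left out. There was 1 call without E6.5 null replicate 4, 2 without replicate 2, 5 or 6, and 10 without replicate 1. The number of all genes called in those fits is not given. DESeq2 put 43 members below an adjusted p of 0.05. Its number over all genes at that threshold is not given, and edgeR's does not stand for it. The median log2 fold change of the members lay between 0.83 and 0.957 under every alternative run. The 10 visceral endoderm markers had lower estimates at E7.5 (116 to 6450 CPM at E6.5 null, 42.7 to 250 at E7.5 null), and their part was not tested. S phase genes had a median of 0.03 and none passed adjustment.

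Whether the step from E6.5 to E7.5 differed between null and WT was tested directly as an interaction. The estimate was positive, a larger rise in null, for 66 of 70 members, with a median of 0.50 (all genes, -0.01). No member was called, beside 0.443% of all genes, and 26 had a positive estimate at an unadjusted p under 0.05, as did 6.51% of all genes. The smallest adjusted p belonged to Hist2h2ab (0.93 ± 0.27, adjusted p 0.0812). DESeq2 called 0 and put 2 below an adjusted p of 0.05. Over all 22122 genes DESeq2 called 114 higher and 494 lower, and its number below that adjusted p at any fold is not given. Without E6.5 WT replicate 3 there were 2 calls and without E7.5 null replicate 3 there was 1. Hist4h4 had the lowest estimate (-0.50 ± 0.39) and Hist1h2aa the highest (2.70 ± 1.34). Tissue markers also moved differently by genotype over this step. All 10 visceral endoderm and all 8 extraembryonic ectoderm markers had negative estimates (medians -5.05 and -4.23). All 8 epiblast markers had positive ones (median 1.61), and no marker of these lists was called. The part of tissue content or stage in the histone estimates was not tested.

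Hist2h2aa1 and Hist2h3c1, H2A and H3 genes side by side on chromosome 3, were read as alternatives in most epiblast libraries. In 10 epiblast libraries Hist2h2aa1 lay between 53.8 and 488 CPM while Hist2h3c1 lay between 0 and 144 (median 21.6). In the other 25 Hist2h2aa1 was at most 0.037 CPM, 22 of them at 0, while Hist2h3c1 lay between 33.0 and 380 (median 262). The 10 libraries came from 5 of the 6 epiblast groups, all but E5.5 WT. Both genes were read in E6.5 WT replicate 2 (286.7 and 144.1 CPM) and E6.5 null replicate 7 (215.3 and 72.8). In E7.5 WT replicate 1 they were at 0 and 33.0 CPM. The summed levels and shares of types H2A and H3 given above include these rows. Both genes share all their windows with other genes and overlap Gm20634, so these 2 rows cannot be read as separate genes, and a fold against E5.5 WT, where Hist2h2aa1 was at 0, is not given. Hist2h2aa2, Hist2h3b and the Hist2h2bb entries, in the same stretch, had standard errors over 1.0 at E6.5 (0.17 ± 1.23 for Hist2h3b).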

How the data were processed

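RNA was sequenced from 35 single epiblasts and 4 EpiSC lines. Reads were trimmed with Trim Galore and aligned to GRCm38/mm10 with HISAT2, and genes were counted with StringTie, per the labels and the submitters' processing notes. The deposited values are raw counts per gene, not normalized, in 1 table for epiblasts and 1 for EpiSCs. The annotation release and strand setting are not given in the sources used here. All columns were mapped to samples (0 were not).

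Counts were tested in R 4.3.3 with edgeR 4.0.16 (TMM, filterByExpr with a minimum count of 10 and a minimum total of 15, robust quasi-likelihood fit of the groups compared, Benjamini-Hochberg adjustment over all genes tested). SE is the fold change divided by the root of F. Genotypes were compared within each stage and in EpiSCs, and stages within each genotype. The genotype by stage interaction was tested in the epiblasts of E6.5 and E7.5. Levels are TMM-scaled CPM, or RPKM over GENCODE vM21 exon length. Members were matched by gene identifier (68 of 70 found, 46 with the same gene version). Tables were made with Python 3.11.15 and pandas 2.3.3, and the fits were tested on simulated data.

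The members and lists (histone processing and supply, replication-independent histones, S phase, tissue markers, germ cell forms) were chosen with earlier results of these data known. Members were named where called in any of 9 comparisons, among the highest 3 of their type by epiblast RPKM, outside the Hist1 cluster, a testis form, or with the extreme estimate of a comparison. Alternatives were DESeq2 1.42.0, other size factors, no filter, genes over 1% of counts left out, all 35 epiblasts in 1 fit, the replicate number as a block, depth, and each library left out. The count of members lower at E6.5 before adjustment, and the GGTCCG search, were added after the data were seen. No 2 libraries were duplicates. Each epiblast library is 1 embryo. Depth was 22941210 to 79013960 counts in epiblasts and 63445877 to 127583699 in EpiSCs, so low genes such as Hist1h2aa rest on few counts.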

Additional observations from a re-analysis of the deposited data

Results flagged for a closer look

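Of 56 groups of values examined for a library far from the rest of its group, 4 held one, where chance gives about 1 group in 20. All 4 were in E7.5 WT. The summed H4 level was lowest in replicate 3, at 1260 CPM against 1710 to 2060 in the other 8. Hist4h4 was lowest in the same library, at 62.8 CPM against 143 to 201. Epiblast markers in that library summed to 6090 CPM, within the E6.5 WT range of 4660 to 7680. Hist1h2aa was highest in replicate 9, at 2.26 CPM against 0 to 0.408. Hist2h2ab was lowest in replicate 6, at 27.6 CPM against 40.7 to 49.1.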

How the results depend on the processing

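The median log2 fold change of the members moved by less than the spread between libraries under every alternative run in 8 of 9 comparisons, with 1 change of sign among them, at E7.5 by genotype (-0.0415 to 0.128). In the other, by genotype at E5.5, it ranged from -0.0773 to 0.476 when single libraries were left out. It was -0.64 to -0.395 by genotype at E6.5, 0.145 to 0.354 in EpiSCs and 0.448 to 0.664 for the interaction. Called members were fewer or more under some alternatives, and the causes were not tested. For alternatives other than DESeq2, here and above, the number of all genes called is not given. Counts of members called under them are therefore not compared with each other or with the main fit. DESeq2 called 1 at E5.5, 1 in EpiSCs, 4 from E5.5 to E6.5 in WT and 17 from E6.5 to E7.5 in null. With all 35 epiblasts in 1 fit there was 1 call from E5.5 to E6.5 in WT, 0 in null, and 19 from E6.5 to E7.5 in null. Without a filter, and without the 3 libraries that stand apart, Hist2h2ab lost its call (0 left), and without those 3 the interaction gave 2. Leaving out single libraries gave 0 to 1 calls in EpiSCs, 0 to 3 from E5.5 to E6.5 in WT and 0 to 1 in null, 2 to 4 from E6.5 to E7.5 in WT and 0 to 10 in null, and 0 to 2 for the interaction. Of the 171 values of single called members under alternatives 58 lost the call and 0 reversed, and Hist4h4 and Hist1h2aa kept theirs under all 25.

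Whether replicate numbers pair the samples was not tested, since correlations between differently numbered libraries were not computed. The correlation of deviations between same-numbered null and WT libraries ranged from -0.439 to 0.54. It was over 0.1 in some pairs and not in others, and the EpiSC lines share no number. With the replicate block there was 1 call from E5.5 to E6.5 in WT, 0 in null, 4 from E6.5 to E7.5 in WT and 0 in null, and 53 members were lower at E6.5 before adjustment. The shares of all genes in the block fits are not given.

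At E6.5 that count was 3 in the libraries over 40000000 counts, which number 3 a side. The share of all genes in that fit is not given. Leaving out genes over 1% of counts raised summed levels by more than 1 SD in these groups. For H1 they became 3786 CPM (E7.5 null), 3819 (E7.5 WT), 1789 (EpiSC null) and 1507 (EpiSC WT). For H2A they became 4242 (E5.5 null), 6117 (E7.5 null), 5922 (E7.5 WT) and 2113 (EpiSC null). For H2B they became 1517 (E5.5 null), 2678 (E7.5 null), 2684 (E7.5 WT), 5248 (EpiSC null) and 4450 (EpiSC WT). For H3 they became 2238 (E7.5 null), 2162 (E7.5 WT), 4556 (EpiSC null) and 3752 (EpiSC WT). For H4 they became 1082 (E5.5 null), 1988 (E7.5 null), 2130 (E7.5 WT), 4926 (EpiSC null) and 4117 (EpiSC WT). By total counts, EpiSC null lines had 1565 CPM for H1 and 4310 for H4.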

Other observations

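The 4 germ cell forms of histones on the marker list (Hist1h1t, Hist1h2aa, Hist1h2ba and H1foo) summed to 10.5 to 35.3 CPM in E5.5 null and 22.5 and 105 in E5.5 WT epiblasts. Their sum was 13.4 to 43.4 CPM in E6.5 null and 19.1 to 70 in E6.5 WT, and 19.9 to 29.1 CPM in E7.5 null and 14.4 to 37 in E7.5 WT. In EpiSCs it was 2.89 to 6.04 CPM. Hist1h1t was at 0.717 to 1.89 CPM in EpiSCs and at 4.14 to 43.4 CPM in epiblasts. The mean level of Slbp was 88.7 to 127 CPM and that of Npat 57.2 to 74.7 CPM over the 6 epiblast groups.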
